A study of Mus musculus with 4 samples.

Results

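Zbtb16 and 7 genes known to respond to glucocorticoids were followed through the cell classes of mouse aorta. The members were 8 of the 32285 genes in the deposited matrices, found by symbol: Zbtb16, Fkbp5, Tsc22d3, Per1, Sgk1, Klf9, Errfi1 and Pdk4. Zbtb16 was chosen by its UMI levels in these same libraries, which differ between the genotypes, and the other genes were added with those results known. Levels and ratios of the 8 genes are therefore given as descriptions, with no test. The question was whether the 7 other genes follow Zbtb16 in every class of cells.

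The study made 4 droplet single-cell libraries from enzyme-digested aorta, and each group is represented by a single one. A normal diet was fed to WT and to LysM-DKO mice, and a western diet to WT/ApoE-/- and to LysM-DKO/ApoE-/- mice. Where 4 values stand in a row, they follow this order. The labels give no age, no number of pooled animals and no meaning for DKO, and the series title concerns epsins, endocytic adaptor proteins. LysM names the promoter of Lyz2, a lysozyme gene of macrophages and neutrophils, so a deletion driven by it acts in myeloid cells. Both western diet groups carry ApoE-/-, so diet and this genotype cannot be told apart. Levels below are in CPM, the UMIs (counted molecules) of a gene per 1000000 UMIs of its library or class. The western diet libraries had Ddx3y at 117 and 124 CPM and the normal diet libraries had none, while Xist stood at 950 CPM in both normal diet libraries and under 1 in the others, so sex differs together with diet as well. With 1 library per group, nothing separates a difference between groups from one between 2 animals or preparations.

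Glucocorticoids are adrenal steroids that bind the glucocorticoid receptor, Nr3c1, which then moves to the nucleus and binds palindromic elements in DNA. The receptor waits in the cytoplasm in a complex with Hsp90 chaperones and immunophilins. Fkbp5 encodes one of these immunophilins, lowers the receptor's affinity for hormone and is itself induced by the receptor, which closes a short feedback loop. Zbtb16 encodes PLZF, a zinc finger repressor that directs innate-like T cells and is among the genes most strongly induced by glucocorticoids in many cultured cells. Vascular smooth muscle, endothelium and adventitial fibroblasts all carry the receptor.

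The 8 genes lie on 8 different chromosomes. On GRCm38 with GENCODE M21, Zbtb16 spans chr9:48654297-48836222 on the minus strand, Fkbp5 spans chr17:28399094-28517527 on the minus strand and Tsc22d3 spans chrX:140539528-140600659 on the minus strand. Per1 spans chr11:69095217-69109960, Sgk1 chr10:21882184-21999903, Klf9 chr19:23141226-23168134 and Errfi1 chr4:150853919-150868892, all on the plus strand. Pdk4 spans chr6:5483351-5496309 on the minus strand. Fkbp5 overlaps AC154912.1 and Errfi1 overlaps 1700045H11Rik, both annotated as antisense genes. The labels do not state how strand was used in counting, so reads of these antisense pairs may not be separable. On their own strand, Fkbp5 overlaps AC154912.3 and AC154912.5, and Klf9 overlaps Mir1192, where strand cannot separate reads.

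Promoters of 7 of the 8 genes were found in the RefSeq promoter table of build GRCm38.p6, as 16 windows of the 250 bases before a transcript start. A pair of them is shown because they hold an E-box, the element of clock factors, and, in Sgk1, the palindrome of the receptor. The first lies at chr17:28486150-28486399 on the minus strand and the second at chr10:21993640-21993889 on the plus strand. Capitals mark the E-box CACGTG in both and the receptor palindrome GNACANNNTGTNC in the second, and N stands for any base.
Fkbp5: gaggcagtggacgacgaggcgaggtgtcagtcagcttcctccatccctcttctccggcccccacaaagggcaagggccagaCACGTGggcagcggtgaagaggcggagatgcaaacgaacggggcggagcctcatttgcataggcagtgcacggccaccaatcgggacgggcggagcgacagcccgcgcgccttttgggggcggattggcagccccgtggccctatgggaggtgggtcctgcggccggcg
Sgk1: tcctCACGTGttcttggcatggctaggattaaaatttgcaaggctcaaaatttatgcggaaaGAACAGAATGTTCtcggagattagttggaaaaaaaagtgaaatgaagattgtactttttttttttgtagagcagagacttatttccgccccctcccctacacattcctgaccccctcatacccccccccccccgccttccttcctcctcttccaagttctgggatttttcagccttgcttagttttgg
The E-box began 169 bases before the Fkbp5 start and 246 bases before the Sgk1 start. It was also present in a Per1 window, 166 bases before the start, and 6.02% of all 32851 windows in the table held it on either strand. The palindrome began 188 bases before the Sgk1 start, was found in no other member window, and was held by 0.387% of all windows. The shorter receptor motif AGAACA, which overlaps both ends of the Sgk1 palindrome and, at another position, the Sgk1 E-box, occurred in windows of Sgk1 and Tsc22d3 and in 16.1% of all windows. The cyclic AMP response element TGACGTCA occurred in a window of Errfi1, 51 bases before the start, and in 1.55% of all windows. These matches are letters in short windows and nothing more.

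A barcode was kept if it held 1000 UMIs or more, of which no more than 10% were mitochondrial. This left 7758, 8230, 13744 and 8133 barcodes with a median of 4167, 3404, 2103 and 6761 UMIs. Each barcode took the first class whose rule it met: macrophage from C1qa, C1qb and C1qc, B from Cd79a and Ms4a1, T from Cd3d, Cd3e and Trac, endothelial from Pecam1 and Cdh5, fibroblast from Pdgfra and Serpinf1, and smooth muscle from Myh11 and Cnn1. Markers that the rules did not use were highest in their own class in every library, with the exception of 1 of the 4 T markers in LysM-DKO/ApoE-/- on western diet. The classes were not pure. In the endothelial class, 71.7% to 87.8% of barcodes also met another rule, and Acta2, a smooth muscle actin, stood at 48.1% to 79.0% of its level in the smooth muscle class. Of macrophage, B and T barcodes, 60.9% to 71.3% met another rule in the normal diet libraries and 21.3% to 48.5% in the western diet libraries, and of fibroblast barcodes 27.7% to 44.6% did. The LysM-DKO/ApoE-/- western diet library held only 14 B and 33 T barcodes. Between 38 and 129 barcode sequences were shared by any pair of libraries, at most 0.824% of the smaller one.

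In the macrophage class, Lyz2 stood at 3696, 977, 4126 and 798 CPM, lower in both LysM-DKO libraries. The common LysM-Cre driver is an insertion into Lyz2 itself. Epn1, an epsin, stood at 81.7, 54.5, 52.4 and 42.7 CPM in this class, and the other epsin Epn2 at 35.6, 33.6, 33.2 and 15.7. Counting intervals overlapped between genotypes within each diet for both genes, by the least for Epn2 on western diet, at 27.8 to 39.5 against 7.82 to 28.0. The deleted genes are not named in the labels, and a 3' tag outside a deleted exon would not check them.

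Zbtb16 was higher in LysM-DKO than in WT in every class on normal diet and in 5 of 6 classes on western diet, and on each diet 5 of 6 ratios had a counting interval above 0. The exceptions were macrophages on normal diet, at a log2 ratio of 0.19 (interval -0.49 to 0.95), and the B class on western diet, at -0.09 from 1 UMI (interval -5.99 to 1.91). In the smooth muscle class it stood at 88.4, 194, 104 and 241 CPM, from 2047, 3326, 3574 and 11634 UMIs. The 4 exact 95% Poisson intervals did not overlap, and both LysM-DKO libraries lay above both WT libraries. Such intervals cover counting error only and say nothing of how animals vary. Between genotypes, the log2 ratio (LysM-DKO over WT) was 1.13 on normal diet (interval 1.05 to 1.21) and 1.21 on western diet (interval 1.16 to 1.27).

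The endothelial class gave Zbtb16 levels of 91.4, 200, 91.9 and 261 CPM, and the fibroblast class 108, 182, 79.5 and 190. In both classes each LysM-DKO library lay above both WT libraries with no overlap of intervals. The WT libraries overlapped each other in the endothelial class and not in fibroblasts. The log2 ratios between genotypes were 1.13 and 1.51 in the endothelial class on normal and western diet, and 0.76 and 1.25 in the fibroblast class.

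T barcodes, in which PLZF is best known from innate-like subsets, held Zbtb16 at 36.5, 72.4, 95.4 and 182 CPM. The genotypes were apart on normal diet, at 30.5 to 43.3 against 62.9 to 83.1, and overlapped on western diet, where 22 UMIs gave 114 to 276 against 77.2 to 117. The western diet log2 ratio was 0.96 with an interval of 0.19 to 1.61. Those 22 UMIs came from 10 of 33 barcodes. In T barcodes that met 1 rule only, this ratio was 0.25, from 92.5 CPM in WT/ApoE-/- and 98.5 in LysM-DKO/ApoE-/-, the latter from 4 UMIs. Macrophage barcodes held 50.3, 58.1, 52.7 and 107 CPM. The first 3 of these levels had overlapping intervals and the LysM-DKO/ApoE-/- library stood apart from the WT/ApoE-/- library. After taking away the free RNA estimate described below, macrophages on normal diet held 37.6 CPM in WT and 26.5 in LysM-DKO, so the direction turned. B barcodes held 17.3, 53.6, 31.3 and 19.9 CPM, the last from 1 UMI with an interval of 0.504 to 111.

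The order of the classes by Zbtb16 level differed between libraries in its upper part. Fibroblast was highest in WT on normal diet, smooth muscle in WT/ApoE-/-, and endothelial in both LysM-DKO libraries, and in each library the interval of the highest class overlapped that of the next. The B class was lowest in all 4 libraries. RNA from burst smooth muscle cells may enter other droplets, so a free RNA estimate was set beside each level by taking all Acta2 of a class as such RNA. It came to 53.8% to 76.5% of the measured Zbtb16 in the endothelial class and 13.9% to 29.7% in the fibroblast class. It came to 25.1% to 54.3% in macrophages and 24.9% to 60.6% in T barcodes. In the B class the estimates were 21.3, 43.8, 19.4 and 35.7 CPM, above the measured level in WT on normal diet and in LysM-DKO/ApoE-/-, and below the interval of the measured level in the other 2 libraries. Counting only barcodes that met 1 rule, Zbtb16 stood at 50.9, 133, 62.2 and 125 CPM in the endothelial class and at 109, 144, 77.7 and 185 in the fibroblast class. Each LysM-DKO value was above the WT value of its diet in such barcodes too. Intervals of the genotypes lay apart in endothelial barcodes on normal diet and fibroblasts on western diet, and they overlapped in the other 2 comparisons. The fibroblast log2 ratio of Zbtb16 on normal diet was 0.40 in such barcodes, with an interval of 0.10 to 0.70.

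**Figure D1:**
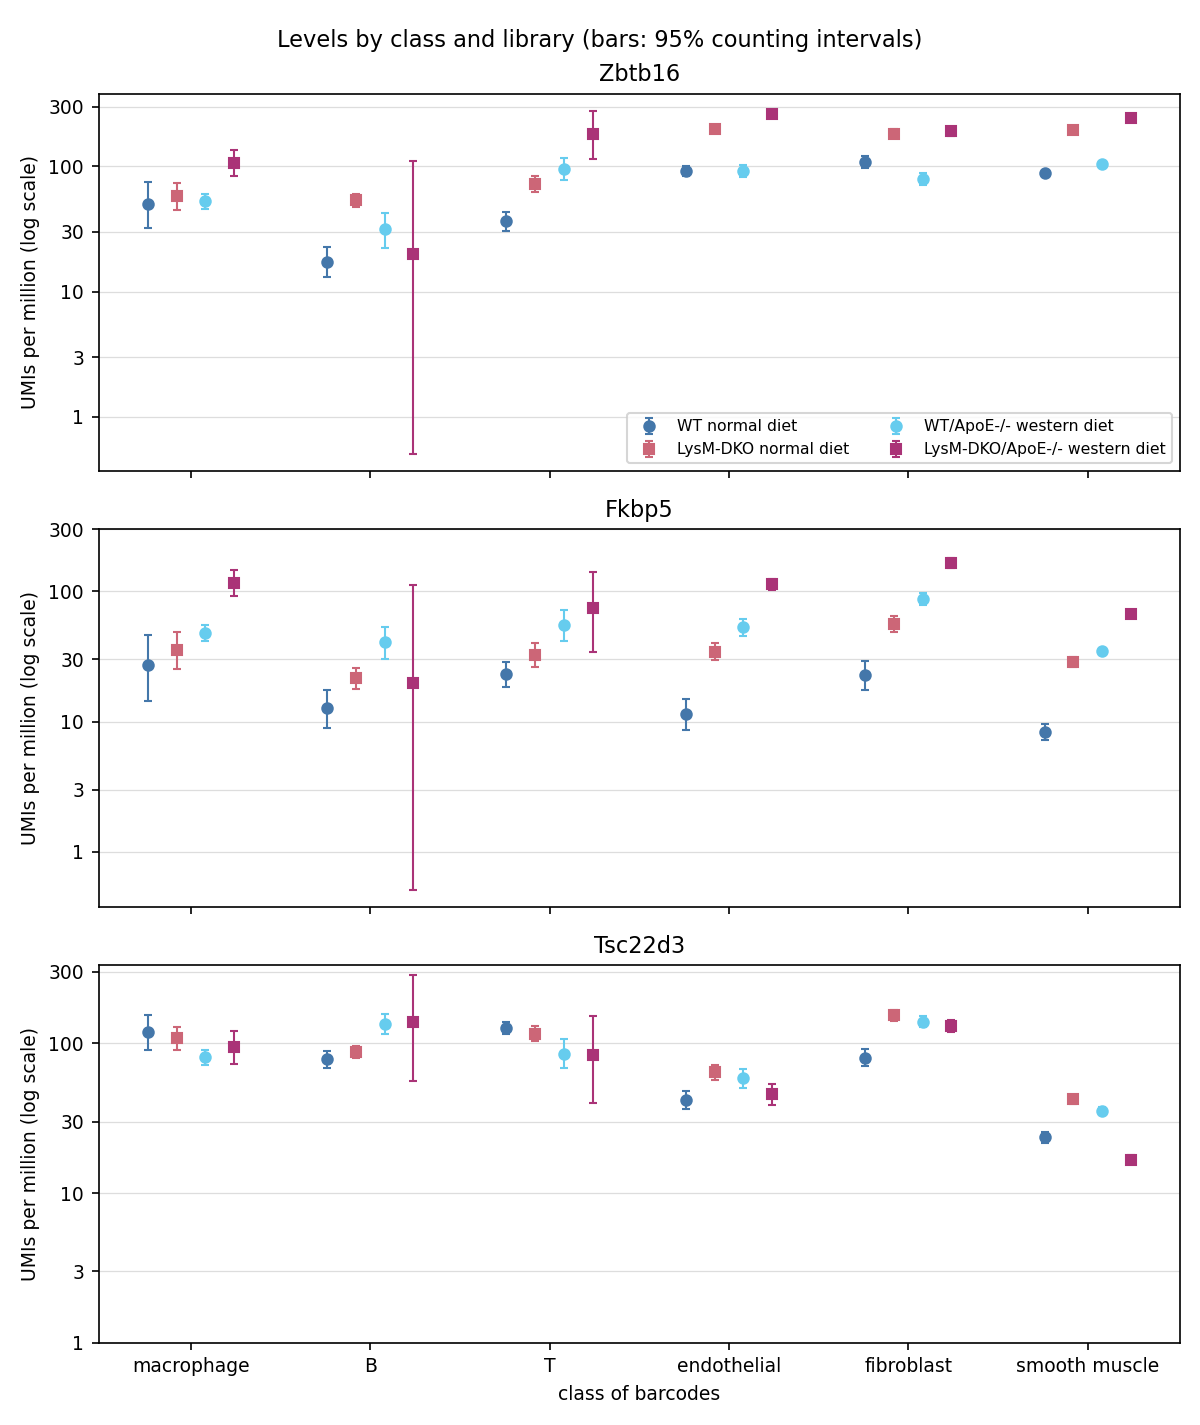
Levels of Zbtb16, Fkbp5 and Tsc22d3 in CPM of the class (log axis) for the 6 classes, with 1 point per library and bars for exact 95% counting intervals. In smooth muscle, Zbtb16 and Fkbp5 are highest in LysM-DKO/ApoE-/- on western diet, at 241 and 67.1, where Tsc22d3 is lowest at 16.6.

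Fkbp5 had the sign of Zbtb16 between genotypes in all 6 classes on both diets, and it also differed between diets. In the B class on western diet both signs rest on 1 UMI in LysM-DKO/ApoE-/-. In the smooth muscle class it stood at 8.38, 28.9, 34.6 and 67.1 CPM, with no overlap among the 4 intervals. In fibroblasts the levels were 22.8, 56.2, 88.0 and 164, and in the endothelial class 11.4, 34.4, 53.2 and 113. The same order of libraries held in these 3 classes, with WT on normal diet lowest and LysM-DKO/ApoE-/- on western diet highest.

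The LysM-DKO over WT log2 ratio of Fkbp5 on normal diet was 1.78 in smooth muscle, 1.58 in the endothelial class and 1.29 in fibroblasts. On western diet the same ratios were 0.96, 1.09 and 0.90. These 6 intervals did not reach 0. In endothelial barcodes that met 1 rule, Fkbp5 stood at 18.3, 28.4, 54.1 and 167 CPM. Its normal diet ratio was then 0.59 (interval -0.53 to 1.93), and 0.71 (interval -0.24 to 1.77) after every barcode was thinned to 1000 UMIs, so the endothelial 2-fold difference on normal diet did not hold under either setting. The macrophage class had Fkbp5 at 27.2, 35.4, 48.1 and 117 CPM, with a log2 ratio of 0.34 on normal diet, whose interval reached below 0, and 1.29 on western diet, whose interval did not. T barcodes held 23.0, 32.5, 55.2 and 74.5 CPM, the last from 9 UMIs in 3 barcodes. B barcodes held 12.7, 21.5, 40.7 and 19.9, the last from 1 UMI.

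Between diets, Fkbp5 was higher on western diet in all 6 classes in both genotypes. The WT log2 ratios ran from 0.77 to 2.21 with every interval above 0, and the LysM-DKO ratios from 0.47 to 1.72 with 5 of 6 intervals above 0. Zbtb16 had median log2 ratios between diets of 0.14 in WT and 0.35 in LysM-DKO over the 6 classes. In WT they ran from -0.44 in fibroblasts to 1.39 in T barcodes, with 3 intervals above 0 and 1 below. In LysM-DKO they ran from -0.85 in the B class, from 1 UMI on western diet, to 1.36 in T barcodes, with 4 intervals above 0. These diet ratios share their libraries with the genotype ratios and are joined with ApoE genotype, sex and the software version. The free RNA estimate came to 4.40% to 58.0% of the measured Fkbp5, a smaller part than of Zbtb16 in every class and library. In fibroblast barcodes that met 1 rule, Fkbp5 stood at 16.8, 64.3, 105 and 174 CPM.

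Tsc22d3 encodes GILZ, a leucine zipper protein that carries part of the anti-inflammatory action of glucocorticoids. In smooth muscle it lay with Zbtb16 on normal diet and against it on western diet. There Tsc22d3 stood at 23.6, 42.1, 35.3 and 16.6 CPM, and no pair of these intervals overlapped. Its genotype ratio (log2) was 0.84 on normal diet, with an interval whose lower end was 0.67, and -1.09 on western diet (interval -1.22 to -0.96). The endothelial class had the same pattern at a smaller size, with levels of 41.8, 63.8, 58.2 and 45.6 CPM and log2 ratios of 0.61 and -0.35. In endothelial barcodes that met 1 rule these ratios were 0.16 (interval -0.34 to 0.68) and 0.57 (interval -0.15 to 1.30), so the western diet direction turned and neither interval was apart from 0. After thinning to 1000 UMIs they were 0.18 (interval -0.35 to 0.73) and -1.03 (interval -1.90 to -0.23), so the 2 settings disagree on western diet. In fibroblasts, Tsc22d3 stood at 80.1, 154, 139 and 130 CPM, so that WT on normal diet was low and the intervals of the other 3 libraries lay within 118 to 167. Fibroblast barcodes that met 1 rule had genotype ratios of 0.90 (interval 0.60 to 1.21) and -0.30 (interval -0.52 to -0.08). After thinning these were 0.97 (interval 0.54 to 1.43) and -0.32 (interval -0.71 to 0.06). T barcodes held 127, 116, 85.3 and 82.8, macrophages 119, 108, 80.5 and 94.0, and neither class had a genotype ratio whose interval lay apart from 0.

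Klf9, a Krüppel-like repressor induced directly by the receptor and also clock-controlled, had a higher genotype ratio on western than on normal diet in smooth muscle, the endothelial class and fibroblasts. In smooth muscle it stood at 508, 540, 492 and 648 CPM. The log2 ratio between genotypes was 0.09 on normal diet and 0.40 on western diet, with intervals of 0.05 to 0.13 and 0.37 to 0.42. In fibroblasts the levels were 639, 581, 525 and 808, and the ratio was -0.14 on normal diet and 0.62 on western diet. Fibroblast barcodes that met 1 rule gave -0.10 (interval -0.23 to 0.04) and 0.57 (interval 0.46 to 0.68). Thinning to 1000 UMIs gave 0.07 (interval -0.12 to 0.27) and 0.58 (interval 0.38 to 0.78). The endothelial class had ratios of 0.13 and 0.37, which were -0.07 and 0.11 in barcodes that met 1 rule. T barcodes went the other way, at 0.47 (interval 0.29 to 0.66) and 0.01 (interval -0.69 to 0.60), and macrophages had -0.13 and 0.01. In no class and on neither diet did Klf9 reach 2-fold.

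Pdk4, a mitochondrial kinase that shuts down pyruvate oxidation in fasting, was counted from few UMIs outside smooth muscle. Its smooth muscle level was 22.1, 27.1, 25.0 and 28.0 CPM, with log2 genotype ratios of 0.29 and 0.16. Fibroblasts held 8.43, 12.6, 16.9 and 36.1, from 24, 46, 66 and 120 UMIs, and the western diet ratio of 1.09 had an interval of 0.65 to 1.55. The LysM-DKO/ApoE-/- library was alone in standing clear of the others in fibroblasts. In T barcodes the normal diet ratio was 1.39, from 21 UMIs against 10. In the B class of LysM-DKO/ApoE-/- no UMI was seen, which allows up to 59.8 CPM at 3 counts.

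Sgk1, a kinase that activates sodium channels and is induced by both glucocorticoids and mineralocorticoids, had the sign of Zbtb16 in 2 of 6 classes on normal diet and 4 of 6 on western diet. Smooth muscle levels were 364, 346, 288 and 304 CPM, with log2 genotype ratios of -0.07 and 0.08. The endothelial class was highest for Sgk1 in every library, at 432, 427, 333 and 435 CPM, with ratios of -0.02 and 0.38. Macrophages held 151, 134, 322 and 378, so that both western diet libraries were above both normal diet libraries with no overlap of intervals. The genotype ratios in macrophages were -0.17 and 0.23.

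Errfi1, a feedback inhibitor of the EGF receptor, was lower on western diet in every class in WT and in some classes in LysM-DKO. In smooth muscle it stood at 432, 471, 312 and 288 CPM, with log2 genotype ratios of 0.12 and -0.11. Over the 6 classes, its western over normal ratio in WT was below 0 in all, with every interval below 0, and ran from -1.19 in macrophages to -0.26 in fibroblasts. In LysM-DKO 3 of 6 intervals lay below 0, with ratios of -1.31 in macrophages, -0.71 in smooth muscle and -0.35 in fibroblasts, while the endothelial class stood at 394 CPM on normal and 393 on western diet. The endothelial genotype ratio on western diet was 0.39 (interval 0.28 to 0.51). Macrophage levels were 316, 291, 139 and 117 CPM. In macrophages the diets were apart and the genotypes overlapped.

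Per1, a core clock repressor with a well-known receptor element, had 1 genotype ratio in all whose interval lay apart from 0. Smooth muscle held 40.6, 43.1, 35.7 and 35.1 CPM, with log2 genotype ratios of 0.09 and -0.03, both with intervals that included 0. On western diet none of the 6 classes had a Per1 ratio whose interval lay above 0, and on normal diet only T barcodes did, at 0.44 from 63.6 against 46.7 CPM.

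**Figure D2:**
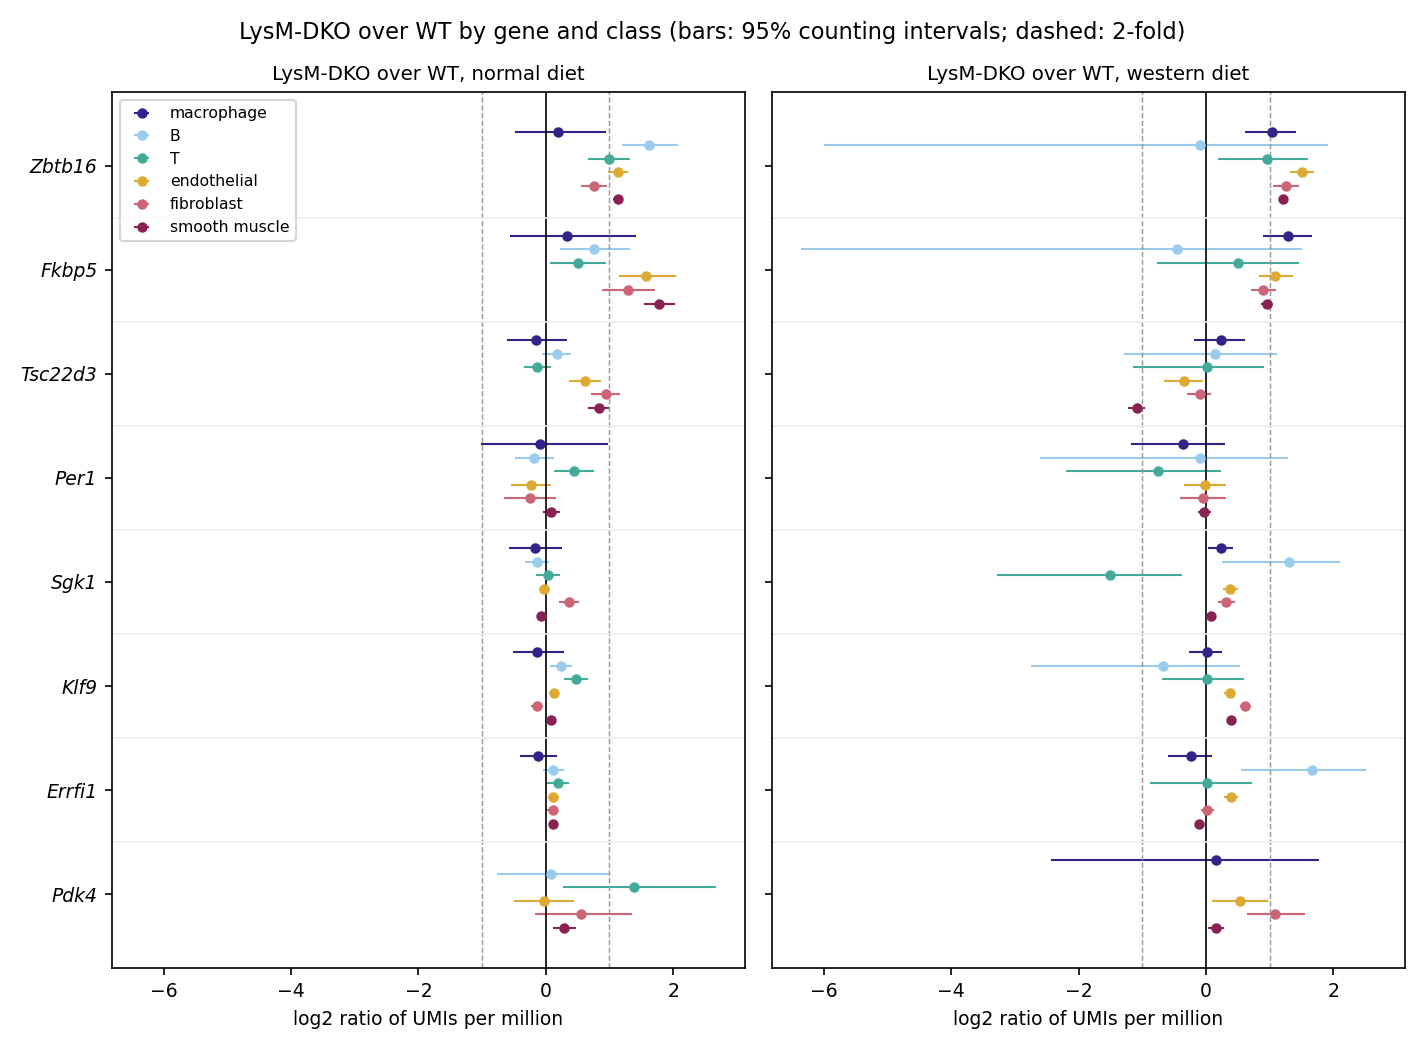
Log2 ratio of LysM-DKO over WT for each gene and class, on normal diet (left) and western diet (right), with 95% counting intervals as bars and dashed lines at 2-fold. Zbtb16 and Fkbp5 lie mostly to the right of 0 on both diets, and the smooth muscle point of Tsc22d3 moves from 0.84 to -1.09.

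Read against all genes, few members besides Zbtb16 and Fkbp5 were past 2-fold, taken as a log2 ratio of at least 1 among genes with 20 or more UMIs over the 2 libraries. On normal diet, the members at least 2-fold higher in LysM-DKO numbered 2 of 8 in smooth muscle, where 6.48% of all genes were, and 2 of 8 in the endothelial class, where 3.51% were. These were Zbtb16 and Fkbp5 in both classes. After thinning, Zbtb16 was just short of the fold in both, at 0.92 and 0.99, and Fkbp5 was short of it in the endothelial class, where barcodes that met 1 rule left it short as well. Fibroblasts had 1 of 8, Fkbp5, beside 2.71% of all genes. T barcodes had 1 of 8, Pdk4, beside 5.15%, with Zbtb16 just short of the fold at 0.99. The B class had 1 of 8, Zbtb16, beside 4.67%, and the macrophage class had 0 of 7 beside 6.55%.

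On western diet, the members at least 2-fold higher were 1 of 8 in smooth muscle, Zbtb16, beside 1.92% of all genes, while Fkbp5 was just short at 0.96. In that class 1 of 8, Tsc22d3, was at least 2-fold lower, beside 9.52% of all genes. The endothelial class had 2 of 8, Zbtb16 and Fkbp5, beside 3.03%. Fibroblasts had 2 of 8, Zbtb16 and Pdk4, beside 3.11%. Macrophages had 2 of 8, Zbtb16 and Fkbp5, beside 4.10%, with Zbtb16 just past the fold at 1.03. T barcodes had 0 of 7 beside 7.62%, while 1 of 7, Sgk1 at -1.50 from 5 UMIs, was at least 2-fold lower beside 9.75%. The B class had 2 of 7 higher, Sgk1 and Errfi1 from 12 and 11 UMIs, beside 16.5%. The Errfi1 ratio there turned to -0.64 in barcodes that met 1 rule and -0.56 after thinning. Since Zbtb16 was chosen on these ratios, nothing is read from its own part in these counts.

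The 7 other genes did not follow Zbtb16 in every class. On normal diet, 27 of 41 pairs of gene and class had the sign of Zbtb16, of which 20 had an interval apart from 0, and 2 pairs had the opposite sign with an interval apart from 0. On western diet the counts were 26 of 40, 15 and 6, where the sign of Zbtb16 in the B class rests on 1 UMI. Averaged over the classes with the number of member pairs as weight, 53.7% of all genes had the sign of Zbtb16 on normal diet and 50.4% on western diet, and 14.0% and 12.6% had that sign with an interval apart from 0. The opposite sign with an interval apart from 0 was held by 7.30% to 14.9% of all genes per class on normal diet. On western diet it was held by 3.85% to 28.2%. Intervals narrow with the UMIs of a gene, and these shares were not matched to the members' UMIs. The 20 pairs became 11 in barcodes that met 1 rule and 12 after thinning, and the 15 pairs became 8 after thinning.

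Fkbp5 had the sign of Zbtb16 in 6 of 6 classes on each diet, and Klf9 in 4 and 6. On western diet 3 of the 6 Klf9 intervals lay above 0, and its ratio was 0.01 in T barcodes and macrophages. The macrophage ratio turned to -0.10 in barcodes that met 1 rule and -0.20 after thinning. Pdk4 had the sign of Zbtb16 in 4 of 5 and 4 of 4 classes in which it was measured. Tsc22d3 had it in 4 and 2 classes, Per1 in 2 and 1, Sgk1 in 2 and 4, and Errfi1 in 5 and 3. Without Zbtb16, which was chosen on these ratios, the median log2 ratio of the other members on normal diet was 0.12 in smooth muscle, 0.37 in fibroblasts, 0.12 in the endothelial class, 0.44 in T, 0.12 in B and -0.13 in macrophages. The medians of all genes in these classes were 0.02, 0.00, -0.00, 0.12, 0.03 and 0.05. On western diet the members' medians in the same order were 0.08, 0.32, 0.38, 0.01, 0.03 and 0.16, beside -0.02, 0.05, 0.03, 0.03, 0.10 and -0.05. The members' median was thus below that of all genes in macrophages on normal diet and in T and B barcodes on western diet.

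In smooth muscle and fibroblasts, the share of barcodes with a UMI differed between genotypes in the direction of the levels, for Zbtb16 and Fkbp5. In T barcodes on western diet the Fkbp5 share went the other way. There it was 13.7% in WT/ApoE-/- and 9.09%, 3 of 33 barcodes, in LysM-DKO/ApoE-/-, or 4.76% and 3.03% after thinning to 1000 UMIs. In smooth muscle, 35.1%, 44.4%, 27.5% and 75.0% of barcodes held a Zbtb16 UMI, at median depths of 6228, 3667, 2220 and 6975 UMIs. With every barcode thinned to 1000 UMIs, which left none out, the shares were 8.46%, 15.4%, 9.09% and 20.7%. Both LysM-DKO shares were above both WT shares after thinning. The B class, with the lowest Zbtb16 levels, had thinned shares of 1.16%, 5.17%, 1.99% and 7.14% at median depths of 2952, 3518, 1924 and 2226 UMIs, the last being 1 of 14 barcodes. For Fkbp5 the thinned shares were 0.867%, 2.64%, 3.52% and 5.80% in smooth muscle and 2.23%, 5.59%, 9.78% and 16.5% in fibroblasts.

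Within a library and class, genotype, diet and preparation are shared, so barcodes with and without a Zbtb16 UMI were set side by side. This could be done in 19 pairs of library and class with at least 50 barcodes holding a Zbtb16 UMI. Such barcodes were deeper: in smooth muscle their median depths were 8269, 7188, 6076 and 7280 UMIs, against 4371, 2093, 1748 and 6067 without. Barcodes of 1 library are not replicates, and depth itself moves with the comparison. Outside smooth muscle, barcodes that also met another rule were kept on both sides, and thinning does not remove them. Their part in these ratios was not tested.

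Klf9 was higher in barcodes with a Zbtb16 UMI in 19 of 19 pairs, with a median log2 ratio of 0.30 and 16 intervals above 0. After thinning to 1000 UMIs it was higher in 9 of 12 pairs, with a median of 0.12 and 1 interval above 0, where 12 is the number of pairs left with enough barcodes and UMIs. Errfi1 was higher in 18 of 19 at full depth, with a median of 0.34 and 14 intervals above 0, and in 11 of 12 after thinning, with a median of 0.26 and 4 intervals above 0. Sgk1 was higher in 16 of 19 with a median of 0.24 and 11 intervals above 0, and in 10 of 12 after thinning with a median of 0.23 and 3 intervals above 0. Pdk4 was higher in 14 of 14 with a median of 0.36, and in 4 of 4 after thinning with a median of 0.28. None of the 4 thinned Pdk4 intervals lay above 0. Per1 was higher in 7 of 18 with a median of -0.03, and in 5 of 10 after thinning with a median of -0.04.

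Fkbp5, which had the sign of Zbtb16 in every class between genotypes, was higher in 12 of 19 pairs with a median of only 0.06, and in 7 of 10 after thinning with a median of 0.29. In LysM-DKO/ApoE-/- smooth muscle it stood at 70.4 CPM with and 54.9 without a Zbtb16 UMI, while in WT on normal diet it stood at 6.49 and 10.0. Tsc22d3 was higher in 2 of 19 pairs with a median of -0.41, and in 4 of 12 after thinning with a median of -0.15. It was the member that most often lay lower where Zbtb16 was seen at full depth, and after thinning 0 of its 12 intervals lay below 0. For scale, Fos, an immediate early gene raised by tissue digestion, was higher in 18 of 19 pairs with a median of 0.37, and in 10 of 12 after thinning with a median of 0.12. The receptor gene Nr3c1 was higher in 17 of 19 and in 9 of 12, with medians of 0.13 and 0.17.

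**Figure D3:**
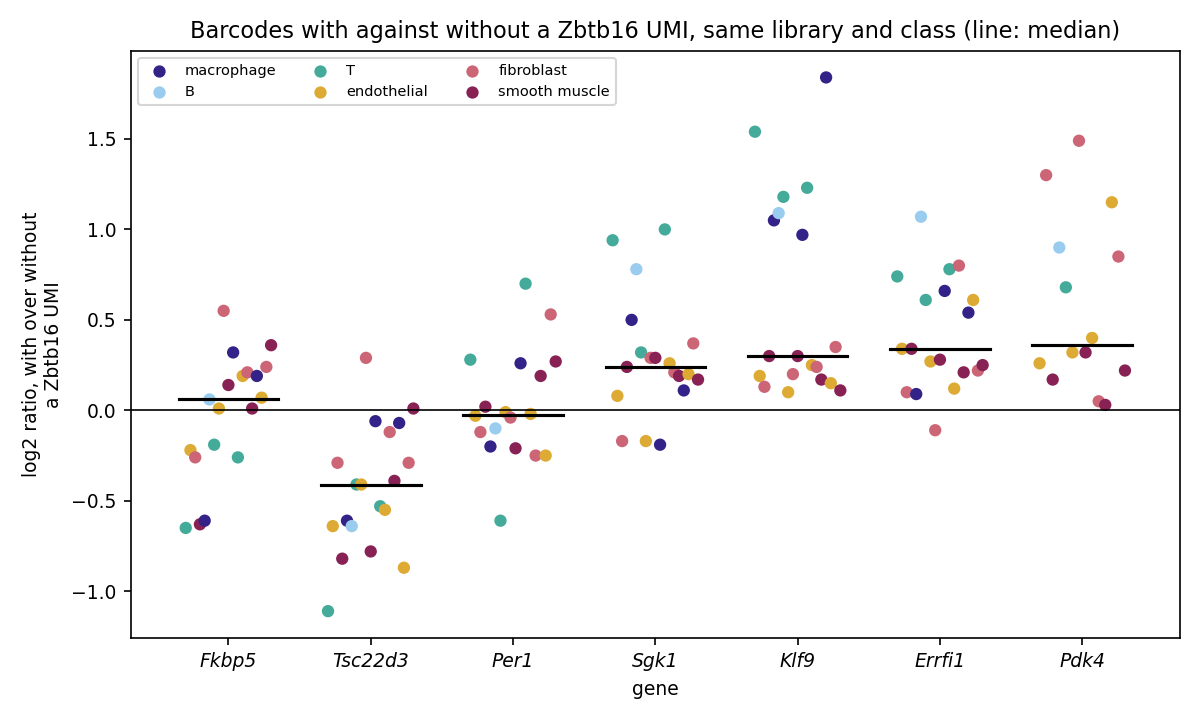
Log2 ratio of each gene between barcodes with and without a Zbtb16 UMI of the same library and class, 1 point per library and class, with the median as a line. Klf9 lies above 0 in all 19 points and Tsc22d3 below 0 in most, with a median of -0.41.

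The genes most like Zbtb16 were ranked by Pearson's r over 24 points, the 6 classes of 4 libraries, on log2(CPM + 1) after taking away the mean of each class. The points of a library share its depth and preparation, so r is a description with no p. Among the 10 nearest of the 8444 genes ranked were Manf, a secreted protein of the endoplasmic reticulum stress response, with r of 0.75, Atp2a2, the calcium pump of the sarcoplasmic reticulum, at 0.74, Ndn and Cenpx at 0.73, Fam124a at 0.71, and Cebpb, Rhou, Nfia and Slc22a3 at 0.69. In smooth muscle, Manf stood at 144, 182, 173 and 207 CPM, with log2 genotype ratios of 0.34 and 0.26. Fam124a stood at 16.1, 40.9, 17.9 and 58.7 CPM there, with ratios of 1.35 and 1.71. Slc22a3, an organic cation transporter, stood at 7.47, 54.6, 69.7 and 185 CPM, with ratios of 2.87 and 1.41. In Fam124a both LysM-DKO libraries lay above both WT libraries, while Slc22a3 was also higher in WT/ApoE-/- than in LysM-DKO on normal diet.

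Among the members, Klf9 ranked 12 with r of 0.69 and Fkbp5 ranked 29 with r of 0.65. Pdk4 ranked 171 with r of 0.51. Per1 had r of -0.02, Tsc22d3 -0.18, and Sgk1 and Errfi1 -0.21. The list of nearest genes was not stable: without the macrophage, B and T classes 3 of the 10 remained among the first 10, and leaving out each library in turn, in the order of the groups, left 0, 2, 1 and 2. The rank of Manf lay between 18 and 86 in each of these. The rank of Fkbp5 went from 27 without WT/ApoE-/- to 1151 without LysM-DKO/ApoE-/-, where its r was 0.36.

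**Figure D4:**
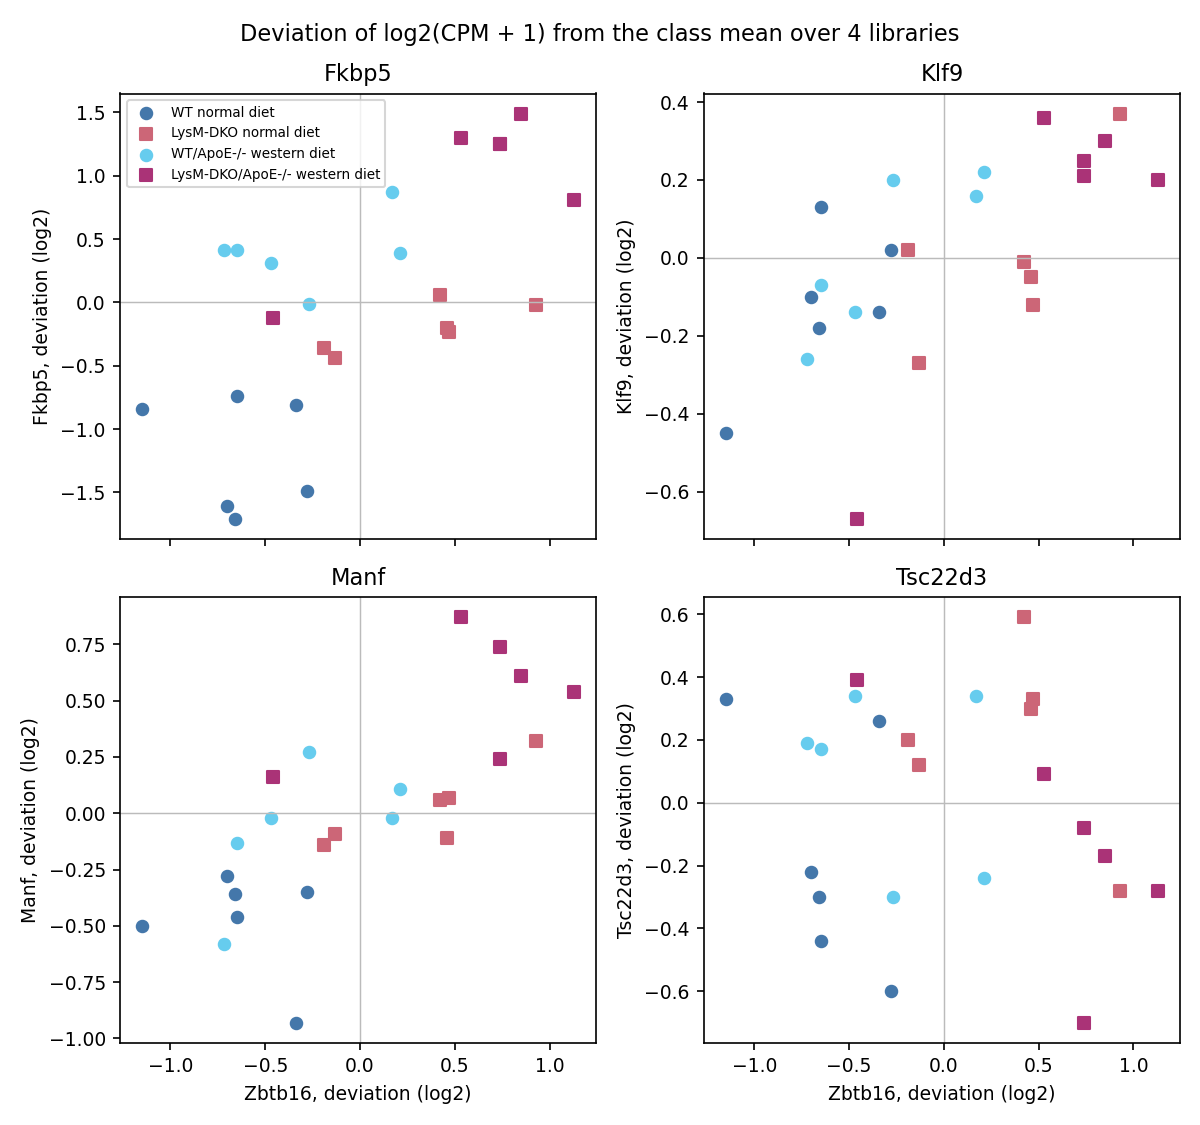
Deviation of log2(CPM + 1) from the class mean over 4 libraries, for Zbtb16 on the x axis and Fkbp5, Klf9, Manf and Tsc22d3 on the y axes, 24 points each. Manf goes with Zbtb16 (r of 0.75), and Tsc22d3 shows no such trend (r of -0.18).

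The receptor itself, Nr3c1, stood in smooth muscle at 186, 170, 189 and 194 CPM and log2 genotype ratios of -0.13 and 0.03. Of a list of 14 genes for the receptor, its chaperones and steroid enzymes, 5 of 12 measured were higher in LysM-DKO smooth muscle on normal diet with a median of -0.06, and 10 of 13 on western diet with a median of 0.12. The median of all genes was 0.02 and -0.02, and 52.7% and 47.8% of all genes were higher. On western diet, the genes of this list with the highest mean over classes were Fkbp4, Hsd11b2 and Hsp90aa1, with means of 0.58, 0.55 and 0.44, and the lowest were Abcb1a, Hsd11b1 and H6pd at -1.79, -0.45 and -0.18. Hsd11b2 could be measured in 1 class only. Fkbp4, an immunophilin that promotes receptor transport and competes with Fkbp5, stood at 85.2, 68.1, 73.7 and 120 CPM in smooth muscle, lower in LysM-DKO on normal diet and higher on western diet. Hsd11b1, which regenerates active hormone, stood at 147, 98.0, 110 and 158 in fibroblasts with ratios of -0.59 and 0.52.

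A further 24 genes known to be glucocorticoid-induced were mixed in direction. In smooth muscle, 16 of 24 were higher in LysM-DKO on normal diet with a median of 0.15, and 12 of 23 on western diet with a median of 0.05. Of all genes in this class, 52.7% were higher on normal and 47.8% on western diet. On western diet the highest means over classes were those of Cd163, Hif3a and Fam107a at 3.42, 1.83 and 1.49, of which Cd163 and Hif3a could be measured in 1 class each. Fam107a, a stress-responsive actin-bundling gene, stood at 1.69, 5.01, 3.14 and 5.08 CPM in smooth muscle, and its intervals for log2 ratios of 1.56 and 0.69 lay above 0. The lowest means were those of Lcn2, Angptl4 and Anxa1 at -3.21, -0.79 and -0.60. Lcn2, an iron-binding lipocalin of inflammation, stood at 0.605, 5.06, 135 and 11.0 in smooth muscle, so its ratio was 3.02 on normal diet and -3.61 on western diet.

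Clock genes were set beside these because corticosterone follows the day. In smooth muscle 9 of 15 were higher in LysM-DKO on normal diet with a median of 0.08, and 10 of 15 on western diet with a median of 0.09. In fibroblasts 8 of 15 were higher on normal diet with a median of 0.02, and 11 of 15 on western diet with a median of 0.54. Of all genes, 52.7% on normal and 47.8% on western diet were higher in smooth muscle, and 50.2% and 55.5% in fibroblasts. Tef, Nr1d1 and Per3 had the highest means over classes on western diet, at 0.62, 0.43 and 0.36, and Bhlhe41, Npas2 and Cry1 the lowest, at -0.30, -0.27 and -0.17. Nr1d1, the clock repressor REV-ERB alpha, stood at 118, 139, 88.7 and 173 CPM in smooth muscle, with log2 ratios of 0.24 and 0.97.

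Genes raised by tissue digestion differed between the libraries too. In smooth muscle 0 of 16 were higher in LysM-DKO on normal diet with a median of -0.33, and 10 of 16 on western diet with a median of 0.09. On normal diet the list's median was -0.42 in macrophages, -0.18 in B, 0.09 in T, -0.29 in the endothelial class and -0.16 in fibroblasts. On western diet it was 0.35, 0.25, -0.04, 0.27 and 0.42 in the same classes, where 13 of 16 genes were higher in macrophages and the endothelial class and 14 of 16 in fibroblasts. Of all genes on western diet, 46.1% were higher in macrophages, 54.1% in the endothelial class and 55.5% in fibroblasts. In smooth muscle 52.7% of all genes were higher on normal and 47.8% on western diet. Hsph1, a heat shock chaperone, stood at 287, 237, 333 and 542 CPM. Its mean over classes on western diet was 0.71, followed by Atf3 at 0.66 and Egr1 at 0.53, while Btg2, Dnajb1 and Hspa1a had the lowest means at -0.18, -0.05 and -0.01. Its part in the ratios of single members was not tested.

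Markers of other cells differed between the libraries within the classes. Adipocyte markers, 4 genes, summed to 92.5 CPM in LysM-DKO fibroblasts on normal diet against 3.16 in WT, and to 0 in both western diet fibroblast classes. Cartilage markers, 3 genes, summed to 62.6, 162, 4107 and 1192 in fibroblasts. Erythroid markers, 3 genes, summed to 10198, 17439, 377 and 53.3 in smooth muscle. Their part in the member levels of these classes was not tested.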

How the data were processed

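The deposited matrices hold UMI counts per gene and barcode from 10x Genomics 3' libraries, which the authors made with Cell Ranger. Per the file headers, its version was 6.0.1 in the normal diet and 6.1.2 in the western diet libraries. The submitters' processing notes name Cell Ranger 6.1.2, Seurat 4.1.0 and mm10; parameters are not given in the sources used here. Members and gene lists were chosen with earlier results of these data known. UMIs were summed per library and class with python 3.11.15, numpy 2.4.6 and pandas 2.3.3, and scaled to the class total (CPM). Summed counts came to 477498 to 48225430 per class, apart from the B and T classes of LysM-DKO/ApoE-/- at 50189 and 120789. With 1 library per group no group test was run. Exact Poisson intervals for levels and Clopper-Pearson intervals for ratios (95%, scipy 1.17.1) cover counting error only, and 0.5 UMIs were added for point ratios. The scripts were tested on simulated data. Named genes were the 8 members, the 10 genes most like Zbtb16 by Pearson's r among genes of at least 10 CPM, and, from each list, the 3 with the highest and the 3 with the lowest mean ratio over classes in LysM-DKO over WT on western diet, the contrast where the mean ratio of Zbtb16 was highest, at 0.98 against 0.97 on normal diet; Nr3c1, Fos, Apoe, Lyz2, the epsins and the sex and cell markers were added as context. No doublet caller was run, and barcodes meeting 2 or more class rules (7.59% to 28.4% of those kept) were left out in an alternative. A set of 9 alternatives was planned, and the free RNA estimate was chosen after seeing the data. One of the named genes is not reported here.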

Additional observations from a re-analysis of the deposited data

Results flagged for a closer look

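Several members lay in opposite directions between genotypes on the 2 diets, with counting intervals apart from 0 on both. As log2 ratios between genotypes, Tsc22d3 was 0.84 in smooth muscle on normal diet and -1.09 on western diet, and 0.61 and -0.35 in the endothelial class. Endothelial barcodes that met 1 rule gave 0.16 and 0.57, and thinning gave 0.18 and -1.03. Klf9 in fibroblasts was -0.14 on normal diet and 0.62 on western diet. In fibroblast barcodes that met 1 rule its normal diet ratio was -0.10 (interval -0.23 to 0.04), and after thinning it was 0.07 (interval -0.12 to 0.27). Its opposite direction on normal diet thus did not hold after thinning. In smooth muscle, Sgk1 was -0.07 and 0.08, and Errfi1 was 0.12 and -0.11, both small. With 1 library per group, the difference between the diets was not tested.

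Barcodes that met no class rule, which no comparison above uses, also differed between genotypes with intervals above 0. On normal diet their log2 ratios were 1.27 for Zbtb16, 1.65 for Fkbp5, 0.96 for Tsc22d3, 0.47 for Sgk1, 0.39 for Klf9 and 0.25 for Errfi1. On western diet they were 0.42 for Zbtb16, 0.96 for Fkbp5 and 0.65 for Klf9.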

How the results depend on the processing

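The limit of every value is 1 library per group, and no library could be left out within a group. No paired analysis was possible because each group holds 1 library and the labels carry no replicate numbers. Depth limits the B and T classes of LysM-DKO/ApoE-/- and Pdk4 outside smooth muscle. The smooth muscle log2 ratio of Zbtb16 on normal diet was 1.05 with at most 5% mitochondrial UMIs, 0.98 with equal weight per barcode and 0.92 after thinning to 1000 UMIs, and on western diet 1.31, 1.37 and 1.29, and 1.15 with at least 2000 UMIs. Between diets, 19 of 40 pairs in WT and 14 of 41 in LysM-DKO had the sign of Zbtb16 and an interval apart from 0. For all genes, these shares were 22.1% and 16.8%. The opposite sign with such an interval was held by 15 and 10 pairs. Among all genes it was held by 9.49% to 31.8% per class in WT and 3.85% to 35.2% in LysM-DKO. Pairs with the sign of Zbtb16 and an interval apart from 0 numbered 11 on normal diet, 9 between diets in WT and 9 in LysM-DKO with barcodes that met 1 rule only, and 12, 7 and 9 after thinning, with 8 for LysM-DKO over WT on western diet after thinning. Among ratios past 2-fold, directions turned for Errfi1 in the B class on western diet, at -0.64 with 1 rule only and -0.56 after thinning. They also turned for Sgk1 in the B class between diets in LysM-DKO, at -0.37 with equal weight. Of all ratios still measured, 141 of 173 kept their direction with 1 rule only, 163 of 185 with equal weight and 150 of 169 after thinning. For Zbtb16 in the B class, the western diet genotype ratio of -0.09 became 0.76 with equal weight. Its LysM-DKO ratio between diets of -0.85 became 1.04 after thinning. With the free RNA estimate subtracted, an alternative chosen after seeing the data, the log2 genotype ratio of Zbtb16 in macrophages on normal diet was -0.50, against 0.19 without the subtraction. Of 186 ratios, 42 were past 2-fold, and of those still measured 33 of 39 stayed so with 1 rule only, 30 of 39 after thinning, 31 of 42 with equal weight and 39 of 42 with median-ratio scaling. That scaling takes away the median log2 ratio of the genes with 10 or more UMIs in both libraries. In the genotype contrasts this median passed 0.1 in 3 cases. They were 0.13 in T barcodes on normal diet, 0.11 in T barcodes on western diet and 0.20 in the B class on western diet.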
